A study of Homo sapiens with 9 samples.

Results

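The amide group of glutamine (Gln) is the nitrogen donor of a small set of enzymes, the glutamine amidotransferases, and 9 genes that encode such enzymes were followed here in HepG2 cells with and without Gln. They were taken from the table of 22587 genes, for their place in the synthesis of asparagine (ASNS), purines (PPAT, PFAS, GMPS), pyrimidines (CAD, CTPS1, CTPS2), hexosamines (GFPT1) and NAD (NADSYN1), by name and not by a threshold on a measured value, although earlier results of these data were known. All 9 were listed in the table and all 9 were tested. HepG2 is a long-established human cell line grown from a liver tumor. Its RNA was sequenced in 9 libraries, 3 with Gln added, 3 after 12 h of Gln deprivation and 3 after 24 h, all from cells without any genetic change named in the labels and kept in high-glucose DMEM with fetal bovine serum. The labels call the cultures with Gln added normal medium and give GlutaMAX, a dipeptide that releases Gln, as their treatment. The treatment protocol of the labels and the methods of the study instead name GlutaMAX in the medium of the deprivation experiments, so the exact composition of the media is uncertain. The labels give no time for the cultures with Gln added, so neither 12 h nor 24 h has a control known to be of the same time. The labels do not say whether the 3 libraries of a group came from separate cultures, so p-values measure the spread between these libraries, which may be technical.

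Amidotransferases pair a domain that splits ammonia from the amide of Gln with a second domain that joins the ammonia to an acceptor. Glutamate is released as the other product. In asparagine synthesis the acceptor is activated aspartate. In purine synthesis Gln gives nitrogen to the ring at the steps of PPAT and PFAS, and again at the step from XMP to GMP. In pyrimidine synthesis it enters with carbamoyl phosphate and again when UTP becomes CTP. Proliferating tumor cells draw on these reactions for DNA, RNA and sugar nucleotides, and liver cells also for glycoprotein secretion. ASNS is a textbook target of the amino acid response, in which the transcription factor ATF4 acts at a composite C/EBP-ATF element, and several nucleotide enzymes are textbook targets of MYC.

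Levels were deposited as FPKM (fragments scaled to the length of the gene and to the size of the library), and the whole fragments behind each value were recovered from their steps. The libraries held 29621270 to 36261546 fragments on genes. The liver genes ALB, AFP, APOB, SERPINA1, TTR and FGB summed to 5986 to 6118 FPKM under Gln, 5396 to 5418 after 12 h and 5269 to 5429 after 24 h, while the fibroblast markers COL1A1, COL1A2 and DCN summed to at most 0.0352 FPKM and the endothelial markers PECAM1, CDH5 and VWF to at most 0.366 FPKM. The liver sum was thus lower without Gln, with no overlap. By limma 4 of the 6 liver genes fell at each time, beside 31.0% of all genes tested at 12 h and 31.7% at 24 h. The median log2 fold changes of the 6 genes were -0.18 and -0.17. Over all genes tested, the median size of the change in either direction was larger, at 0.25 and 0.28. The part of the fall in liver genes in the results was not tested. Of the leukocyte markers PTPRC, CD14 and CD3E, only CD14 had deposited values, at 0.994 to 1.75 FPKM. In a bulk sample, fewer cells that express a gene and less RNA of it per cell cannot be told apart.

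With Gln added, the genes spanned a wide range of FPKM, a scale that takes gene length into account. GFPT1 stood highest at 30.8 ± 0.52 FPKM (SD, n = 3), followed by CTPS1 at 28.7 ± 1.15. PPAT, CAD, PFAS, GMPS and NADSYN1 came next at 17.6, 14.98, 13.9, 12.7 and 10.7 FPKM, then CTPS2 at 7.87 ± 0.27, and ASNS was far below the rest at 0.128 ± 0.0036 (SD of 3 libraries each). No library of any gene overlapped those of its neighbor in this order. After 12 h the order of the means was the same, but PPAT overlapped CAD, PFAS overlapped GMPS, and NADSYN1 overlapped CTPS2. After 24 h CAD was above PPAT by mean, with overlapping libraries, and GMPS overlapped NADSYN1. No exon of another gene in GENCODE v44 overlapped those of CAD, CTPS1, CTPS2, PFAS, GMPS, GFPT1 or NADSYN1. For PPAT, a gene on the opposite strand, ENSG00000270147, overlapped 2.2% of its exonic bases. ASNS shares exons with another gene on its strand, so its FPKM cannot be read as the level of all ASNS mRNA.

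**Figure D1:**
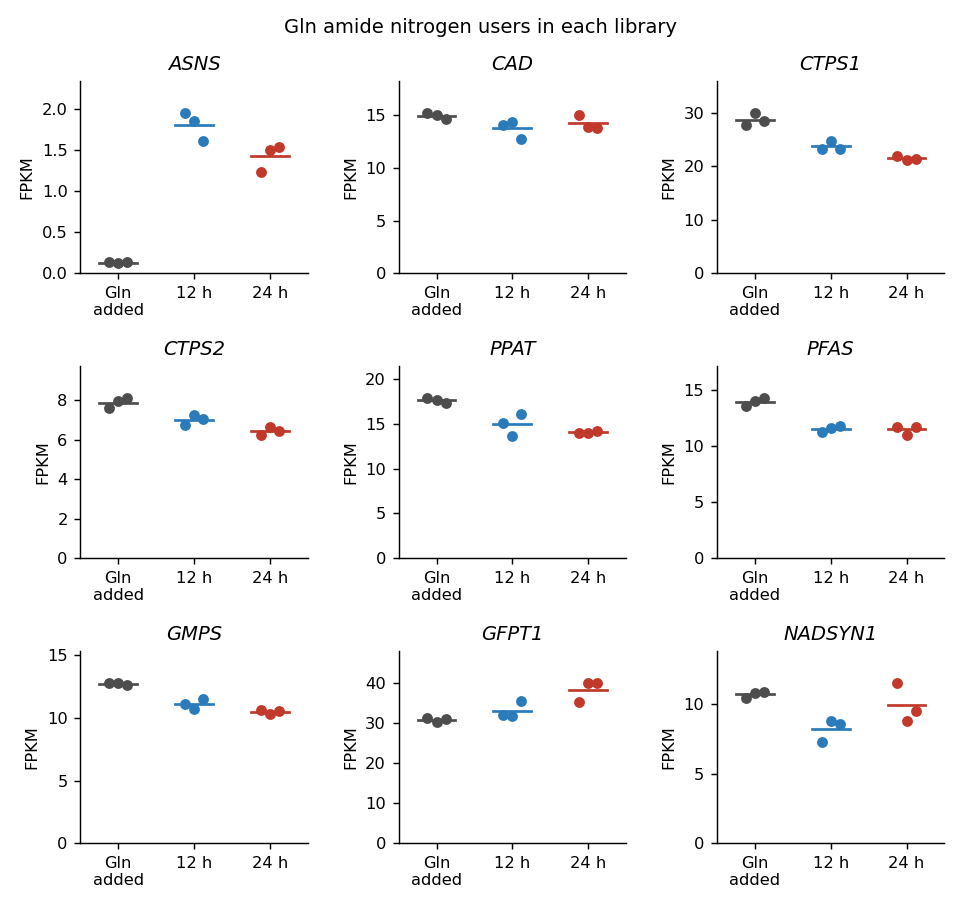
FPKM of each of the 9 genes in every library (points) by group, with the group mean as a line and a linear axis that starts at 0 in each panel. ASNS rose from at most 0.130 FPKM under Gln to at least 1.24 FPKM without it, CTPS1, CTPS2, PPAT, PFAS and GMPS lay below the Gln-added libraries at both times, and the 3 libraries of NADSYN1 at 24 h spread from 8.80 to 11.5 FPKM.

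The 9 genes moved in unlike directions without Gln. Differences were tested with limma on log2(FPKM + 0.1), with the 3 groups fitted together and p-values adjusted by Benjamini-Hochberg over 11880 genes whose mean reached 0.5 FPKM. At 12 h, 1 of the 9 genes rose (ASNS) and 6 fell (CTPS1, CTPS2, PPAT, PFAS, GMPS and NADSYN1) with an adjusted p under 0.05, where 60.2% of all genes tested passed, 29.1% as rises and 31.0% as falls. At 24 h, 2 rose (ASNS and GFPT1) and 5 fell (CTPS1, CTPS2, PPAT, PFAS and GMPS), against 64.7% of all genes, 33.0% as rises and 31.7% as falls. CAD passed the test at neither time. Counted by libraries that did not overlap with those given Gln, 2 of the 9 genes were higher (ASNS and GFPT1) and 7 lower at 12 h, beside 32.8% and 34.4% of all genes, and 2 were higher and 5 lower at 24 h, beside 35.7% and 34.1%. From 12 h to 24 h, 1 of the 9 genes rose (GFPT1) and 1 fell (CTPS1) by the test, beside 20.1% of all genes, 9.57% as rises and 10.5% as falls. Without overlap between these times 1 was higher (NADSYN1) and 4 lower (ASNS, CTPS1, CTPS2 and GMPS), beside 17.5% and 16.9%. These shares of the 9 genes are read against a background in which most genes moved. The median log2 fold change of the 9 genes was -0.19 at 12 h and -0.27 at 24 h, beside -0.019 and 0.013 for all genes tested. Without regard to direction, the median size of the change in the 9 genes was 0.24 at 12 h and 0.29 at 24 h. Over all genes tested it was much the same, at 0.25 and 0.28. ASNS had a mean of only 0.128 FPKM with Gln added and passed the filter through its level in the Gln-deprived libraries. Both times are compared with the same 3 libraries with Gln added, so the changes at the earlier and the later time are not independent of each other.

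**Figure D2:**
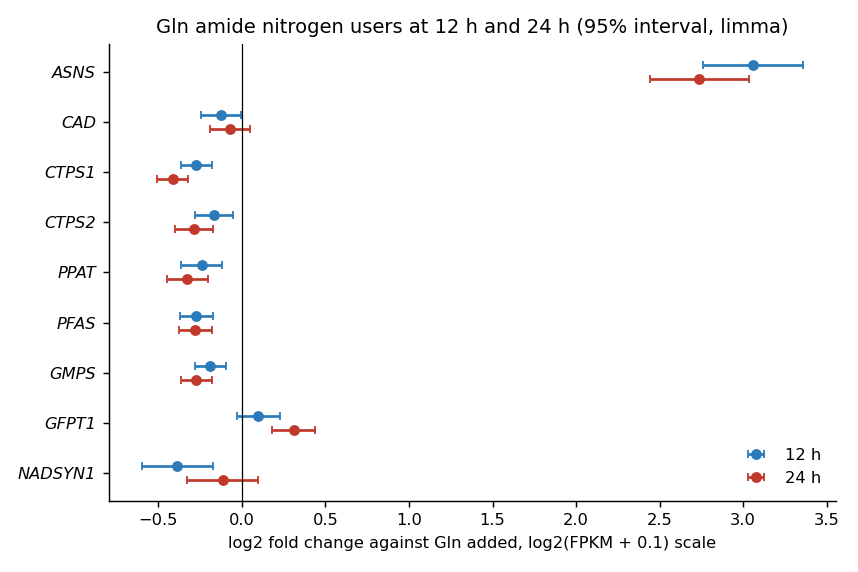
Log2 fold change of FPKM + 0.1 against Gln added at both times (points) with the 95% interval from limma (bars), for each of the 9 genes. ASNS stands apart at 3.06 and 2.74, while the other 8 genes lie between -0.41 and 0.31.

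ASNS encodes asparagine synthetase, which makes asparagine from aspartate and the amide nitrogen of Gln. It lies on chromosome 7 of GRCh38 from 97851677 to 97872542, on the minus strand (GENCODE v44). The window from 250 bases before to 50 bases after its start site in RefSeq (GRCh38.p14, chr7:97872359-97872658, minus strand) is shown because it holds a match to the motif of the amino acid response. Both strands of the windows were searched for the C/EBP-ATF composite motif TGATGNAA and for the E-box CACGTG, the site of MYC and related factors, which do not overlap. In the sequence, written 5′ to 3′, capitals mark the match to TGATGNAA, which covers the bases from -68 to -61 (position 0 is the start site).
ASNS: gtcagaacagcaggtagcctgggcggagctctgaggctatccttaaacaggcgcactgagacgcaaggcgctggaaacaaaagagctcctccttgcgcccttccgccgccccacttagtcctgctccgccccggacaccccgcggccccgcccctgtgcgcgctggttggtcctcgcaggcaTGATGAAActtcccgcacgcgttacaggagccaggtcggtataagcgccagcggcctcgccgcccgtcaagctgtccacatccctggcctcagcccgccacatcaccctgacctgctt
Of the 9 genes, 1 (ASNS) held TGATGNAA, in 1 of its 2 RefSeq windows, among 12 windows in all, and 3.62% of 35116 windows of the same length over all genes held it. A match is a description of the letters, and binding was not measured in these data.

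The 3 libraries with Gln added had 0.130, 0.124 and 0.130 FPKM of ASNS, from 15, 14 and 15 fragments. After 12 h the values were 1.95, 1.86 and 1.61 FPKM, and after 24 h they were 1.24, 1.51 and 1.54 FPKM, from 143 to 218 fragments in the 6 Gln-deprived libraries. All values without Gln lay far above those under Gln, and the 24 h libraries all lay under the lowest 12 h library. The mean at 12 h was 14.1 times and at 24 h 11.1 times that with Gln added. On the log2(FPKM + 0.1) scale the log2 fold change was 3.06 at 12 h (95% interval 2.76 to 3.36, adjusted p = 2.24e-08 from limma). At 24 h the log2 fold change was 2.74 (adjusted p = 3.33e-08 from limma). On this scale alone, the rise ranked 5 of 11880 genes at 12 h and 13 at 24 h. ASNS is among these genes only through its level without Gln, so the ranks add no support. With so few fragments under Gln, the size depends on the scale, being 1.31 at 12 h and 1.10 at 24 h if 1 FPKM is added, and 3.76 and 3.43 by voom on fragments. Between the times ASNS differed by -0.32 (95% interval -0.62 to -0.024, adjusted p = 0.119 from limma), which did not pass the adjusted threshold, although it passed in limma without a trend (adjusted p = 0.0435).

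The counting of ASNS is uncertain, because its exons are shared. Another gene on the same strand, ENSG00000284707, shares 49.3% of what GENCODE v44 counts as ASNS exon. In the deposited table the readthrough transcript CZ1P-ASNS is a separate entry, which RefSeq places from 97852117 to 97972358 on chromosome 7, over nearly the whole of ASNS. Whether fragments in shared exons were given to ASNS, to CZ1P-ASNS or to neither is not given in the sources used here, so the FPKM of ASNS cannot be read as the level of all ASNS mRNA. CZ1P-ASNS had means of 0.899 ± 0.042 FPKM under Gln, 0.941 ± 0.066 after 12 h and 0.861 ± 0.18 after 24 h (SD of 3 libraries each), from 79 to 130 fragments. Its log2 fold change was 0.058 at 12 h (95% interval -0.27 to 0.39) and -0.073 at 24 h (95% interval -0.40 to 0.26), and neither passed the test. The ratio of ASNS to CZ1P-ASNS within a library does not depend on scaling between libraries. It was 0.138, 0.139 and 0.152 with Gln added, 2.13, 1.83 and 1.82 at 12 h, and 1.42, 2.24 and 1.49 at 24 h. These ratios did not overlap between Gln-added and Gln-deprived libraries (log2 difference 3.75 at 12 h and 3.56 at 24 h, p = 0.1 each by a two-sided exact permutation test, which cannot go lower with 3 libraries against 3).

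Among the other genes of asparagine metabolism, 5 of 6 listed genes could be tested. At 12 h, 2 rose and none fell by limma, and at 24 h 1 rose and 1 fell. This count, like those of the other lists, stands beside 29.1% of all genes tested that rose and 31.0% that fell at 12 h, and 33.0% and 31.7% at 24 h. NARS1, the cytosolic asparaginyl-tRNA synthetase that loads asparagine onto its tRNA, went from 85.4 ± 3.30 FPKM to 150 ± 8.10 at 12 h and 161 ± 4.77 at 24 h (SD of 3 libraries each), a log2 fold change of 0.91 at 24 h. NARS2, its mitochondrial counterpart, rose by 0.19 at 12 h on the log2 scale. ASRGL1, an asparaginase-like enzyme that splits asparagine, fell by 0.23 at 24 h on the log2 scale. ASNSD1, which resembles ASNS in sequence, was at 24.1 ± 0.91, 26.5 ± 2.23 and 25.1 ± 0.93 FPKM in the 3 groups (SD of 3 libraries each) and did not pass the test (named after its values were seen).

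All 3 purine genes fell at both times. PPAT, PFAS and GMPS together summed to 44.2 to 44.4 FPKM under Gln, 35.9 to 39.4 after 12 h and 35.2 to 36.4 after 24 h, so the groups with and without Gln did not overlap in this sum. PPAT catalyses the committed first step, in which the amide of Gln replaces the pyrophosphate of phosphoribosyl pyrophosphate (PRPP). Its values were 17.9, 17.7 and 17.4 FPKM with Gln added, 15.1, 13.6 and 16.1 after 12 h, and 14.03, 13.9 and 14.2 after 24 h. PPAT was lower in each Gln-deprived library, and its 12 h libraries were the more scattered. The mean changed by -15.3% at 12 h and by -20.3% at 24 h, with log2 fold changes of -0.24 (SE 0.055, adjusted p = 0.00315 from limma) and -0.33 (adjusted p = 0.000375 from limma).

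PFAS, which adds a Gln amide nitrogen to formylglycinamide ribonucleotide (FGAR) later in the pathway, was at 13.6, 13.96 and 14.2 FPKM with Gln added, at 11.2, 11.5 and 11.8 after 12 h and at 11.7, 10.98 and 11.7 after 24 h. PFAS lies on chromosome 17 from 8247618 to 8270491 (plus strand). Both Gln-deprived groups lay below every library with Gln added and overlapped each other. The mean changed by -17.3% at 12 h and -17.7% at 24 h (log2 fold changes -0.27 and -0.28, SE 0.044, adjusted p = 0.000325 and 0.000225 from limma). Between the times PFAS differed by -0.0065 (95% interval -0.10 to 0.091 on the log2 scale).

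GMPS, which aminates XMP to GMP, had the tightest replicates with Gln added, at 12.8, 12.8 and 12.6 FPKM. It was at 11.1, 10.7 and 11.6 FPKM after 12 h and at 10.7, 10.3 and 10.6 FPKM after 24 h. GMPS lies on chromosome 3 from 155870650 to 155944020 (plus strand). No library without Gln reached the level of one with Gln, and each 24 h library was below each 12 h library. The mean changed by -12.4% at 12 h and by -17.4% at 24 h (log2 fold changes -0.19 and -0.27, SE 0.042, adjusted p = 0.00253 and 0.000193 from limma). The difference between the times was -0.082 (95% interval -0.18 to 0.011) and did not pass the test.

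PPAT lies on chromosome 4 from 56393362 to 56435615 on the minus strand, and PAICS, which encodes the enzyme of 2 later steps of the same pathway, starts on the other strand close by. RefSeq gives several start sites for PAICS. The start site of PPAT at 56435615 and the nearest of PAICS at 56435752 have 136 bases between them. The PPAT window (GRCh38.p14, chr4:56435566-56435865, minus strand, 5′ to 3′) is shown because it spans these start sites of both genes. Capitals mark a match to the E-box CACGTG, from -182 to -177 relative to PPAT and from 40 to 45 bases past that start of PAICS.
PPAT: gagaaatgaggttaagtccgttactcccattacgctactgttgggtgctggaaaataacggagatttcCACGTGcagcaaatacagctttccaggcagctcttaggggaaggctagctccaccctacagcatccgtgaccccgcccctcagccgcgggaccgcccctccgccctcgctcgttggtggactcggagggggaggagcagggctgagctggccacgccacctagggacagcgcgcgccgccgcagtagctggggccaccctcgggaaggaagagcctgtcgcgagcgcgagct
Of the 9 genes, 1 (PPAT) had CACGTG in a window, and 7.26% of all windows held it. Bases outside the windows, which end 50 bases after a start site, were not searched, so a gene without a match may have one there.

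PAICS went from 59.1 ± 1.97 FPKM to 38.8 ± 1.23 after 12 h and 35.1 ± 1.09 after 24 h (SD of 3 libraries each). Its log2 fold change at 24 h was -0.75. The ratio of PPAT to PAICS within a library went from 0.305, 0.307 and 0.284 with Gln added to 0.381, 0.365 and 0.408 at 12 h, and was 0.414, 0.390 and 0.396 at 24 h. The log2 ratio differed by 0.37 at 12 h and 0.42 at 24 h without overlap (p = 0.1 each by the same exact permutation test), and between 12 h and 24 h the groups overlapped. The ratio gives the unequal change of the pair, not which of the genes carried it.

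**Figure D3:**
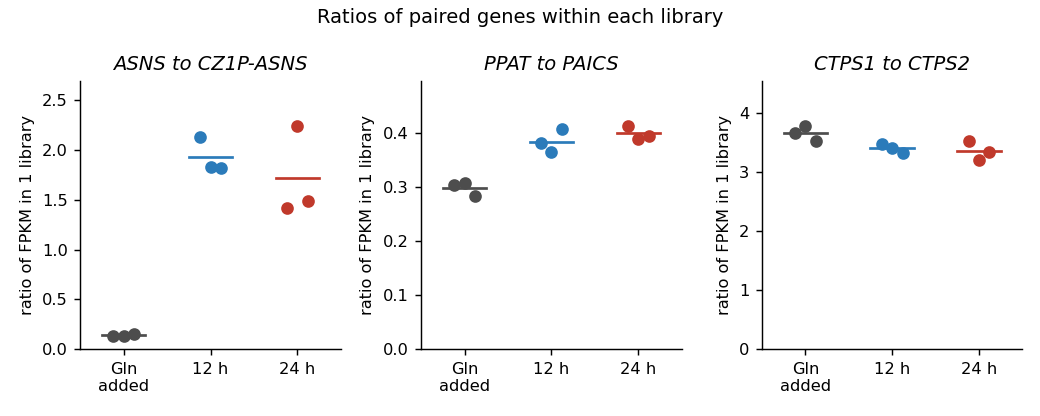
Ratio of the FPKM of 2 genes within each library (points) and the group mean (line), on linear axes from 0. ASNS to CZ1P-ASNS went from at most 0.152 to at least 1.42, PPAT to PAICS from at most 0.307 to at least 0.365, and CTPS1 to CTPS2 overlapped between Gln added (3.52 to 3.78) and 24 h (3.203 to 3.523).

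Of 12 other purine genes, 8 fell and 1 rose by limma at 12 h, and 7 fell and 1 rose at 24 h, with median log2 fold changes of -0.24 and -0.33. Of all genes tested, 31.0% fell and 29.1% rose at 12 h, and 31.7% fell and 33.0% rose at 24 h. PRPS2, which makes PRPP, fell by 0.69 at 24 h on the log2 scale, and HPRT1, which salvages hypoxanthine and guanine, fell by 0.72 at 12 h. GART, whose product acts on the steps around PFAS, was the gene that rose, from 24.0 ± 0.32 FPKM to 33.1 ± 1.13 at 12 h and 33.4 ± 0.88 at 24 h (SD of 3 libraries each; named after its values were seen).

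Of the pyrimidine genes, both CTP synthases fell and CAD did not pass the test. CAD encodes the large enzyme that makes carbamoyl phosphate from Gln and carries the next steps toward the pyrimidine ring, and lies on chromosome 2 from 27217369 to 27243943 (plus strand). Its values were 15.2, 15.1 and 14.6 FPKM with Gln added, 14.1, 14.4 and 12.8 after 12 h, and 15.04, 13.9 and 13.8 after 24 h. All 12 h libraries lay just below those with Gln added, and the 24 h libraries overlapped them. The log2 fold change was -0.12 at 12 h (95% interval -0.24 to -0.0037, adjusted p = 0.0702 from limma) and -0.072 at 24 h (95% interval -0.19 to 0.048, adjusted p = 0.264 from limma). At 12 h CAD passed with voom (adjusted p = 0.0419), with the replicate number as a block (adjusted p = 0.0382) and without replicate 2 of the 12 h group (-0.16, adjusted p = 0.0449 from limma), and without replicate 3 of that group its log2 fold change was -0.072.

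CTPS1, the CTP synthase that lymphocytes are known to need for proliferation, was at 27.7, 30.0 and 28.5 FPKM with Gln added, 23.3, 24.7 and 23.3 after 12 h and 21.9, 21.2 and 21.4 after 24 h. CTPS1 lies on chromosome 1 from 40979300 to 41012565 (plus strand). The 3 groups did not overlap and stepped down with time. The mean changed by -17.3% at 12 h and -25.1% at 24 h, with log2 fold changes of -0.27 (SE 0.042, adjusted p = 0.000237 from limma) and -0.41 (adjusted p = 8.55e-06 from limma). The step from 12 h to 24 h was -0.14 (95% interval -0.23 to -0.048, adjusted p = 0.0386 from limma). That step lost the threshold when any of 5 libraries was left out: replicate 3 with Gln added, replicate 1 or 2 of 12 h, and replicate 2 or 3 of 24 h, with values from -0.16 to -0.11 over all 9 libraries left out.

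CTPS2, the second CTP synthase, encoded on chromosome X from 16587999 to 16712936 (minus strand), was at 7.58, 7.94 and 8.09 FPKM with Gln added, 6.71, 7.26 and 7.02 after 12 h and 6.23, 6.63 and 6.42 after 24 h. It too stepped down without overlap between groups. The mean changed by -11.1% and -18.3% (log2 fold changes -0.17 and -0.29, SE 0.051, adjusted p = 0.0146 and 0.000493 from limma). At 12 h the call was lost without replicate 3 with Gln added (-0.15, adjusted p = 0.0583 from limma) and without replicate 1 of 12 h (-0.14, adjusted p = 0.0606 from limma). The ratio of CTPS1 to CTPS2 within a library was 3.65 ± 0.13 under Gln, 3.40 ± 0.074 after 12 h and 3.35 ± 0.16 after 24 h (SD of 3 libraries each). The log2 ratio differed by -0.10 at 12 h without overlap (p = 0.1 by the same exact permutation test), and at 24 h the groups overlapped (difference -0.12, two-sided exact permutation test, p = 0.2), although only by 3.523 against 3.52, and with 0.1 FPKM added to both genes they did not (-0.13, exact permutation p = 0.1).

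In the rest of the pyrimidine list, 5 of 9 genes fell and 2 rose at 12 h by limma, and 4 fell and 2 rose at 24 h. TYMS, which makes thymidylate, went from 134 ± 3.56 FPKM to 80.5 ± 1.17 and 71.7 ± 1.57 (SD of 3 libraries each), a log2 fold change of -0.90 at 24 h. NME1, a nucleoside diphosphate kinase whose reads can be shared with its close copy NME2, so that its level is uncertain, fell by 0.74 at 24 h on the log2 scale. DHODH, the mitochondrial enzyme that follows CAD, fell by 0.62 at 24 h. The genes that rose at both times were UCK2 and UCKL1, kinases of uridine salvage, which were named after their values were seen.

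**Figure D4:**
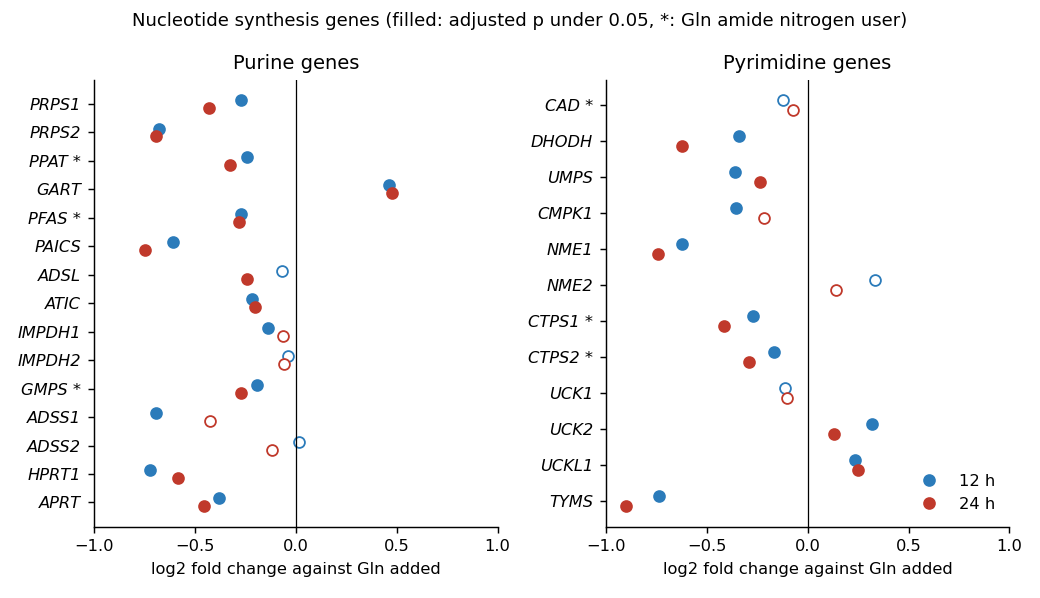
Log2 fold change of FPKM + 0.1 against Gln added at both times for purine genes (left) and pyrimidine genes (right), filled where the adjusted p from limma was under 0.05, with the Gln amide nitrogen users marked by an asterisk. The marked genes lie between -0.41 and -0.072, with PAICS at -0.75 and TYMS at -0.90 farther to the left at 24 h and GART to the right at 0.46 and 0.48.

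GFPT1, which makes glucosamine 6-phosphate and sets the entry of glucose carbon into the hexosamine pathway, rose at 24 h by the test, as ASNS did at both times. It was at 31.3, 30.2 and 30.9 FPKM with Gln added, 31.8, 31.7 and 35.5 after 12 h and 35.1, 39.8 and 39.8 after 24 h. GFPT1 lies on chromosome 2 from 69319780 to 69387250 (minus strand). The 12 h libraries lay barely above those with Gln added apart from replicate 3, and all 24 h libraries lay clearly above them. The log2 fold change was 0.098 at 12 h (95% interval -0.031 to 0.23, adjusted p = 0.169 from limma) and 0.31 at 24 h (95% interval 0.18 to 0.44, adjusted p = 0.000832 from limma), a mean 1.24 times that with Gln added. From 12 h to 24 h GFPT1 differed by 0.21 (95% interval 0.081 to 0.34, adjusted p = 0.029 from limma), although replicate 3 of 12 h and replicate 1 of 24 h overlapped. This call was lost without replicate 1 or 2 of 12 h or without replicate 2 or 3 of 24 h, where the difference was between 0.18 and 0.19. Its paralog GFPT2 had 0 to 4 fragments per library and could not be compared.

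Elsewhere in the hexosamine list, 5 of 9 genes tested fell and 2 rose at 12 h by limma, and 4 fell and 2 rose at 24 h. The genes that rose were OGT, which places O-linked N-acetylglucosamine on proteins, and OGA, which removes it. OGT went from 16.6 ± 0.23 FPKM to 29.8 ± 0.78 and 32.9 ± 0.79, and OGA from 13.6 ± 0.50 to 24.3 ± 0.65 and 21.8 ± 1.12 (SD of 3 libraries each). AMDHD2, which deacetylates N-acetylglucosamine 6-phosphate, fell by 0.58 at 12 h on the log2 scale. GNPNAT1, PGM3 and UAP1 carry the pathway on from GFPT1 to its end product (all named after their values were seen). GNPNAT1 was at 37.1, 34.2 and 36.3 FPKM in the 3 groups and passed the test at neither time. PGM3 went from 21.9 to 14.9 and 19.9 FPKM, and UAP1 from 18.9 to 14.38 and 14.002 FPKM.

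NADSYN1, which converts nicotinic acid adenine dinucleotide to NAD with the amide of Gln, passed the test at 12 h, where it was lower, and not at 24 h. Its values were 10.5, 10.8 and 10.9 FPKM with Gln added, 7.25, 8.77 and 8.56 after 12 h and 11.5, 8.80 and 9.54 after 24 h. NADSYN1 lies on chromosome 11 from 71453109 to 71524107 (plus strand). The 12 h libraries lay below all others, and at 24 h replicate 1 was above and replicates 2 and 3 were below the libraries with Gln added. The mean fell by 23.5% at 12 h (log2 fold change -0.39, SE 0.096, adjusted p = 0.00505 from limma). At 24 h the log2 fold change was -0.12 (95% interval -0.33 to 0.097, adjusted p = 0.314 from limma), and without replicate 1 of 24 h it was -0.22 (adjusted p = 0.0307 from limma), so this library decided the call. Between the times NADSYN1 differed by 0.27 (95% interval 0.060 to 0.48, adjusted p = 0.0712 from limma), and by 0.35 without replicate 2 of 24 h (adjusted p = 0.0307 from limma).

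In the rest of the NAD list, 6 of 11 genes tested fell and 2 rose at 12 h by limma, and 7 fell and none rose at 24 h. QPRT, which leads from tryptophan breakdown into NAD, went from 129 ± 1.57 FPKM to 102 ± 2.09 and 78.1 ± 3.02 (SD of 3 libraries each). HAAO, the enzyme just before QPRT, fell by 0.90 at 24 h on the log2 scale, and NADK2, the mitochondrial NAD kinase, fell by 0.70.

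Genes of other amide transfer moved in both directions. GATB, QRSL1 and GATC form the mitochondrial complex that uses Gln to amidate glutamate on the tRNA of Gln, and GATB fell by 0.35 at 24 h on the log2 scale, whereas QRSL1 and GATC had log2 fold changes of 0.27 and 0.24 there, each with an adjusted p under 0.05 from limma (GATC was named after its values were seen). CPS1, the relative of CAD in the urea cycle that takes free ammonia in place of Gln, went from 8.24 ± 0.32 FPKM to 7.03 ± 0.48 and 5.62 ± 0.19 (SD of 3 libraries each), a log2 fold change of -0.54 at 24 h.

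Transcripts of factors known to act on these genes rose for the most part, 7 of 8 at both times by limma, where 29.1% of all genes rose at 12 h and 33.0% at 24 h. ATF4 mRNA went from 41.9 ± 0.75 FPKM to 77.4 ± 2.01 and 75.5 ± 1.06, CEBPB from 30.2 ± 0.58 to 82.1 ± 3.04 and 84.7 ± 8.51, and CEBPG from 15.1 ± 0.63 to 32.9 ± 1.58 and 30.4 ± 0.79 (SD of 3 libraries each). ATF3 had log2 fold changes of 1.61 and 1.54, MAX of 0.47 and 0.59 and MLXIPL, which encodes ChREBP, of 0.34 and 0.38. MYC rose from 30.6 ± 0.19 FPKM to 64.6 ± 3.71 and 54.1 ± 4.05 (SD of 3 libraries each). CTPS1, PPAT, PFAS and GMPS fell in the same libraries. The part of MYC or of the other factors in the changes of the 9 genes was not tested. ATF5 fell by 0.21 at 24 h on the log2 scale.

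Genes of DNA replication and division fell in the same libraries as the nucleotide enzymes. Of 10 such genes, 9 fell at 12 h and 10 at 24 h by limma, with median log2 fold changes of -0.72 and -1.04. Of all genes tested, 31.0% and 31.7% fell, and their medians were -0.019 and 0.013. RRM1, a subunit of ribonucleotide reductase, had log2 fold changes of -1.20 and -1.53, and MCM5 and MCM2, of the replicative helicase, had -1.26 and -1.48 and -1.11 and -1.33. Their part in the fall of CTPS1, CTPS2, PPAT, PFAS and GMPS was not tested.

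The likeness of the 9 genes to others was measured as the root mean square difference of their log2(FPKM + 0.1) values over the 9 libraries, after the mean with Gln added was subtracted, and 10868 genes of 1 FPKM or more on average were compared. Nearest to ASNS were TSC22D3, a glucocorticoid-induced leucine zipper gene, at 0.34, AREG, the growth factor amphiregulin, at 0.49, and IGFBP1, an insulin-like growth factor binding protein, at 0.50. The nearest genes of the other members were far closer: TNIP1 to CAD at 0.027, SDHC to CTPS1 at 0.038, PRKDC to CTPS2 at 0.036, PSMG1 to PPAT at 0.026, ANKRD13A to PFAS at 0.017, UBE2N to GMPS at 0.026, TRPM7 to GFPT1 at 0.028 and STN1 to NADSYN1 at 0.065. Among the 9 genes themselves, GMPS and PPAT were the closest pair, at 0.054, followed by GMPS and PFAS at 0.059. Small changes have many near neighbors among so many genes.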

How the data were processed

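According to the methods, the authors aligned reads from both ends to GRCh38 with STAR. The submitters' processing notes also name HTSeq and R 3.2.0, without a role. The annotation and the use of strand in counting are not given in the sources used here, and the labels name another library kit than the methods. The deposited values are FPKM, 1 for each gene in each library. Whole fragments were recovered from the steps of these values for all 22587 genes, each within 0.01 of a whole number, and every value column belongs to a labelled sample. Since FPKM are not counts, the DESeq2 test of the methods was replaced by limma 3.58.1 in R 4.3.3 (lmFit, eBayes with a trend) on log2(FPKM + 0.1), mean at least 0.5 FPKM, with the 3 groups fitted together and p-values adjusted by Benjamini-Hochberg over 11880 genes. A fold change on this scale understates that of genes near 0.1 FPKM.

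Ratios were compared by two-sided exact permutation tests (SciPy 1.17.1). Within each group, every pair of libraries differed beyond sampling noise (chi-square over genes). Lists of pathway genes, regulators, replication genes and cell markers were written from general knowledge. The genes and lists were chosen with earlier results of these data known. Beside the 9 genes, CZ1P-ASNS, PAICS, GFPT2, all 8 regulators, up to 3 genes per list with the largest change and the nearest genes are named, and genes outside this rule are marked as named after their values were seen. Positions come from GENCODE v44 and promoters from RefSeq (GRCh38.p14), where all 9 genes matched by symbol. The fit and the recovery were run on simulated data in which few genes changed. Most genes changed here, so the simulation does not check the fit under the conditions of these data. Alternatives were another pseudocount, filter or scaling, only the groups compared, the replicate number as a block, no trend, voom on fragments, and each library left out. Plots used matplotlib 3.10.9 under Python 3.11.15.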

Additional observations from a re-analysis of the deposited data

Results flagged for a closer look

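Levels differed between 12 h and 24 h of Gln deprivation for 2 of the 9 genes by a direct test in limma, where 20.1% of all genes tested differed. No time is given for the libraries with Gln added, so longer deprivation and longer culture cannot be told apart. CTPS1 was lower at 24 h than at 12 h by -0.14 on the log2 scale (adjusted p = 0.0386 from limma), in 3 of 3 libraries. GFPT1 was higher at 24 h by 0.21 (adjusted p = 0.029 from limma), although the libraries of both times overlapped. ASNS, CTPS2 and GMPS did not overlap between the times either, all lower at 24 h, nor did NADSYN1, higher at 24 h, but none of these 4 passed the adjusted threshold.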

How the results depend on the processing

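The directions and calls of ASNS, CTPS1, PPAT, PFAS, GMPS and GFPT1 against Gln added held under each alternative at both times, and so did the counts of all genes within 1.5 times of their values. The count of the 9 genes higher at 24 h than at 12 h went from 1 to 0 without a filter, with only the groups compared and without a trend, and the count lower went from 1 to 0 without a filter, with FPKM rescaled to the same total and with only the groups compared. Without a trend the count lower was also 1, but by ASNS (adjusted p = 0.0435 from limma), while CTPS1 no longer passed (adjusted p = 0.0648 from limma). Over the libraries left out, each of these counts lay between 0 and 1. In the pathway lists the number higher at 24 h than at 12 h went from 5 to 3 without a filter and to 2 with only the groups compared, and lay between 1 and 6 over the libraries left out, while the number lower lay between 6 and 10. The ratio of ASNS to CZ1P-ASNS had log2 differences of 3.00 (12 h) and 2.81 (24 h) with 0.1 FPKM added to both genes. Differences near 0 between the times changed sign: over the libraries left out CAD lay between -0.00054 (without replicate 3 of 12 h) and 0.085, and PFAS between -0.026 and 0.024 (above 0 without replicate 3 of 12 h, 0.010, or replicate 2 of 24 h), and PFAS was at 0.0074 with FPKM rescaled to the same total. The cause was not tested. GFPT1 to GFPT2 gave no ratio as deposited, since GFPT2 was at 0 in some libraries.

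Deviations from the group means were correlated between libraries of different groups over 7296 genes. The correlation was -0.14 to 0.44 for same-numbered libraries and -0.60 to 0.37 for the others. Of the 9 libraries, 5 correlated best with their own number. Whether the replicate numbers of the labels pair the libraries is not settled by these values. With the replicate number as a block, 7341 genes passed at 12 h and 7802 at 24 h, in place of 7147 and 7686, and CAD at 12 h was at -0.12 (adjusted p = 0.0382 from limma). Only 14 to 15 fragments per library lie behind ASNS with Gln added, so the size of its rise is uncertain.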
